A study of Mus musculus with 6 samples.

Results

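The 10 genes followed here serve to take up glucose, to store and release it as glycogen, or to make and move lactate. They were Slc2a1, Pygb, Pygm, Gys1, Gbe1, Ldha, Ldhb, Slc16a1, Slc16a3 and Pfkfb3. The 10 symbols were chosen by name from the 34836 gene names on the array, and all 16 of their probes among 55681 were used. Expression was measured in the neonatal mouse cerebellum on Agilent arrays with 1 color, in 3 samples of ACSA-2+/GLAST+ cells (A+/G+) and 3 samples of ACSA-2-/GLAST+ cells (A-/G+). GLAST is a glutamate transporter of astroglia, and ACSA-2 is an antigen that the antibody recognizes on ATP1B2. Animals were wild type and of the CD1 strain per the labels. The methods name CD1 only for adult hosts of grafts and another background for other wild-type mice. The labels give postnatal days 1 to 3, whereas the methods give days 0 and 1.

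Cerebella of either sex were pooled, and 50000 cells were taken per sample. A+/G+ cells were held back on a magnetic column by beads against ACSA-2 alone, with no step that removed other cells. A-/G+ cells were first freed of cells that carried L1CAM, ACSA-2, CD45, PSA-NCAM or Ter119, and GLAST-bearing cells were then selected. Both fractions are therefore enriched populations and not single cell types. Slide 1 carried the A+/G+ arrays and slide 2 the A-/G+ arrays, so effects of the slide and of the sort cannot be told apart. The 75th percentile of the intensity lay between 332 and 334 on the A+/G+ arrays and between 56.6 and 251 on the A-/G+ arrays. Between 26476 and 26655 probes were well above background in A+/G+, compared with 18340 to 24730 in A-/G+.

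The sort was checked by its targets. Atp1b2 had a log2 difference of 2.16 in favor of A+/G+ (adjusted p = 0.00725, limma), while Slc1a3, which encodes GLAST, had a difference of -1.19 (adjusted p = 0.0733, limma). Lists of cell type markers were read in the same arrays. All 8 Bergmann glia markers were called higher in A-/G+, with a summed normalized signal of 18003 to 27180 there against 4342 to 5266 in A+/G+. Some of these markers had been reported as higher in A-/G+ by the authors from the same arrays, and they are no separate check. Several lists of other cell types stood higher in A+/G+. Of 8 ciliated ependymal markers 6 were called (8274 to 14266 in A+/G+ against 408 to 1460), and of 5 oligodendrocyte precursor markers 3 (12590 to 15304 against 1117 to 2242). Likewise 3 of 7 pericyte markers were called (7149 to 7375 against 4344 to 4600), 2 of 6 meningeal fibroblast markers (75765 to 90785 against 12901 to 39454) and 5 of 8 Purkinje cell markers (5244 to 14088 against 1792 to 2413). No A-/G+ array had a signal well above background for the defining Purkinje and ependymal genes Calb1, Car8, Foxp2, Dnah5 and Spag17. The part of these cells in the differences below was not tested, and in sorted bulk samples fewer cells of a type and less RNA per cell cannot be told apart.

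Glucose enters brain cells through facilitative transporters, and GLUT1, the product of Slc2a1, serves both the endothelium of the blood-brain barrier and astroglia. Astrocytes are the main site of glycogen in the brain, where glycogen synthase (Gys1) and the branching enzyme (Gbe1) build the polymer and the phosphorylases (Pygb, Pygm) release glucose 1-phosphate from it. Pyruvate from glycolysis is reduced to lactate by lactate dehydrogenase, whose subunits are Ldha and Ldhb, and lactate crosses membranes through the monocarboxylate transporters MCT1 (Slc16a1) and MCT4 (Slc16a3). Several of these genes are known targets of hypoxia-inducible factors.

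Between the fractions, the glucose transporter gene Slc2a1 and the brain phosphorylase gene Pygb were higher in A+/G+, by 1.92 and 0.77 on the log2 scale. The lactate exporter gene Slc16a3 was higher in A-/G+ by 0.94. The other 7 genes did not pass an adjusted p of 0.05 (0.0549 to 0.669, limma with Benjamini-Hochberg adjustment over all probes). Each gene stands here by its probe with the highest mean signal, and differences are A+/G+ minus A-/G+ of quantile normalized log2 signals. Thus 2 of 10 genes were called higher in A+/G+ (called for A+/G+), where 4.65% of all probes were, and 1 of 10 higher in A-/G+, where 4.64% of all probes were. Shares of all probes, here and below, include many dim probes, since a filter on dim probes kept 25178 of 55681. With the further limit of medians at least 4-fold apart, as in the methods, 1 gene (Slc2a1) remained in A+/G+ and 0 in A-/G+, against 1.53% and 0.399% of all probes. When arrays were aligned at the 75th percentile of their intensity instead (75th percentile shift), 1227 probes were called for A+/G+ and 2658 for A-/G+, against 2589 and 2583, and with both limits 604 and 938, against 851 and 222. In 5 genes, Slc16a1 among them, the lowest A+/G+ array was above the highest A-/G+ array (12.7% of all probes), in 2 the reverse held (24.3% of all probes), and in 3 the fractions overlapped. The median difference over the 10 genes was 0.22, compared with -0.043 over all probes. Over all 16 probes of the 10 genes, 5 lay higher on every A+/G+ array, 5 lay higher on every A-/G+ array and 6 overlapped, with a median difference of -0.04. With 3 arrays in each fraction the smallest exact permutation p is 0.1 (two-sided).

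**Figure D1:**
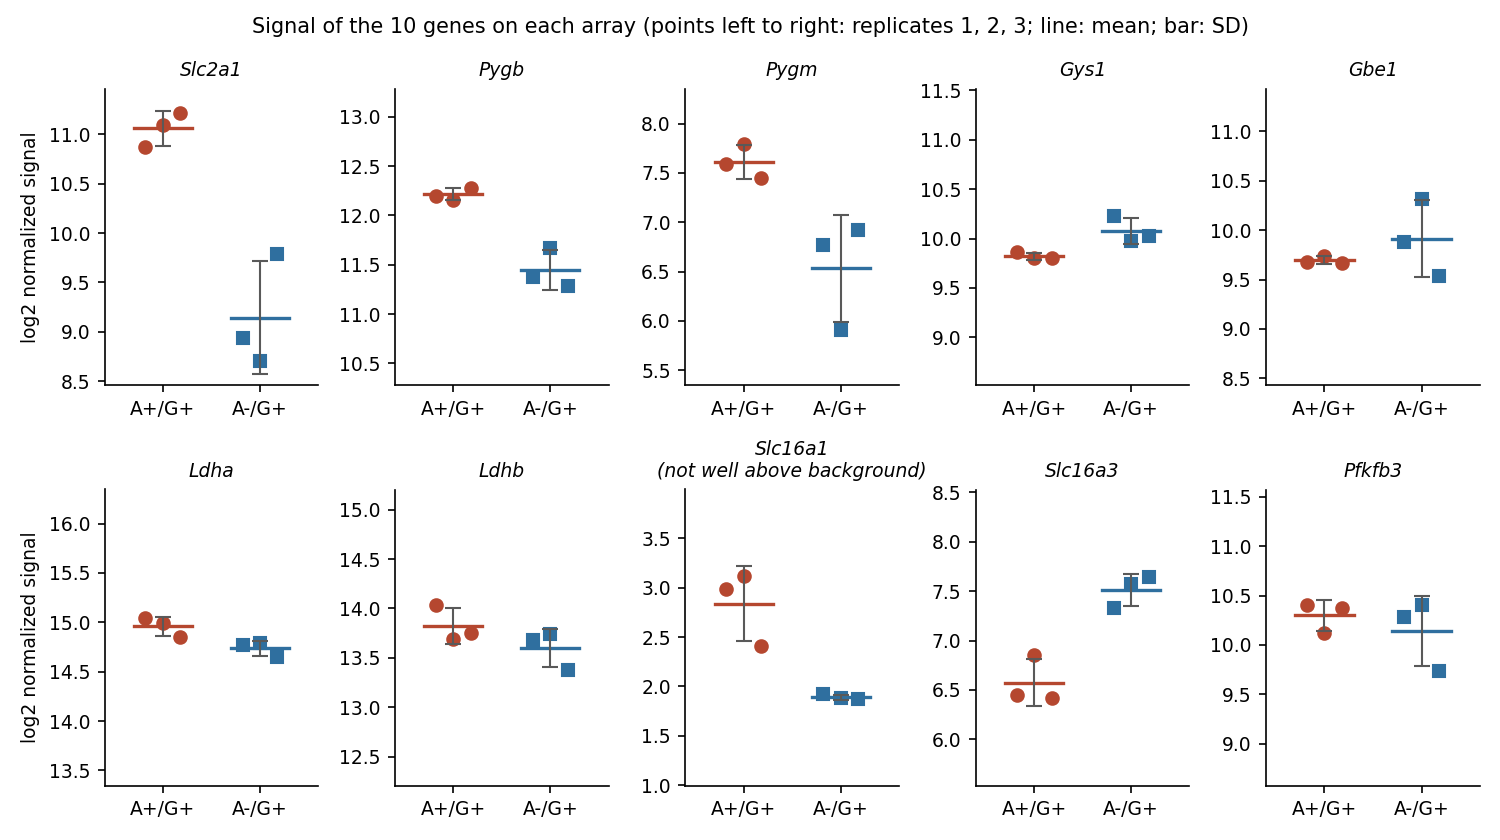
Normalized log2 signal of the brightest probe of each of the 10 genes on the 3 A+/G+ arrays (circles) and the 3 A-/G+ arrays (squares), with the mean (line) and SD (bar); every panel spans the same log2 range but starts at its own level. Slc2a1, Pygb and Pygm lie higher on every A+/G+ array, Slc16a3 and Gys1 higher on every A-/G+ array, and Ldhb, Gbe1 and Pfkfb3 overlap.

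The adjusted p of the 3 called genes was close to the limit, and most calls did not survive the loss of 1 array. No setting turned the direction of Slc2a1, Pygb or Slc16a3 among the 15 alternatives run for each. With A+/G+ replicate 1, 2 or 3 left out, the numbers of genes called higher in A+/G+ were 0, 0 and 1, the last being Slc16a1, which lay near background. Without A-/G+ replicate 1, 2 or 3 they were 0, 1 (Pygb) and 2 (Slc2a1 and Pygb). Slc16a3 kept its call without A+/G+ replicate 2 and lost it without each of the other 5 arrays. With the 75th percentile shift Slc2a1 was the 1 gene called. That scaling moved the median difference over all probes from -0.043 to -1.018, but not by the same step for all probes. The fitted value of Slc2a2, with no signal well above background, went from -0.02 to -1.64. Probes well above background moved less, as Slc2a1 from 1.92 to 1.90, Gys1 from -0.26 to -0.28 and Ldha from 0.22 to -0.08. For dim probes a value of 0 there is therefore not a neutral point.

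The promoters of the 3 called genes and of Ldha, whose signal is described further on, are shown. Several of the 10 genes, though not each of those shown, are often described as driven by hypoxia-inducible factors, which bind a core of ACGTG or GCGTG. Sequences run from 250 bases before to 50 bases after the start site in RefSeq on GRCm38.p6, and all 10 genes were matched. Capitals mark ACGTG or GCGTG on either strand, so that CACGT and CACGC are these letters read from the other strand, and CACGTG holds ACGTG on both. The first is Slc2a1 (chr4:119108495-119108794, plus strand), followed by Pygb (chr2:150786546-150786845, plus strand), Slc16a3 (chr11:120948817-120949116, plus strand) and the first of 2 start sites of Ldha (chr7:46845554-46845853, plus strand).
Slc2a1: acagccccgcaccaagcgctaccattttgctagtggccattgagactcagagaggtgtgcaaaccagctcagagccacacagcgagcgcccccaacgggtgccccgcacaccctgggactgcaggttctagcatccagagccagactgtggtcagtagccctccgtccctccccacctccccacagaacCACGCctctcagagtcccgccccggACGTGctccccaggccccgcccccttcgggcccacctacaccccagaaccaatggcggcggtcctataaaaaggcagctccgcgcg
Pygb: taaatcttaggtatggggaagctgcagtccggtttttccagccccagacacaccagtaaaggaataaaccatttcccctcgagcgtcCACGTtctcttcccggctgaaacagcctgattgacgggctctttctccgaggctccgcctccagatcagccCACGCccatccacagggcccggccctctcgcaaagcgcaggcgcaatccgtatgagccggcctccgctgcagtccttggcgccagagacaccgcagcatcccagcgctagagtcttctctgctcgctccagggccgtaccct
Slc16a3: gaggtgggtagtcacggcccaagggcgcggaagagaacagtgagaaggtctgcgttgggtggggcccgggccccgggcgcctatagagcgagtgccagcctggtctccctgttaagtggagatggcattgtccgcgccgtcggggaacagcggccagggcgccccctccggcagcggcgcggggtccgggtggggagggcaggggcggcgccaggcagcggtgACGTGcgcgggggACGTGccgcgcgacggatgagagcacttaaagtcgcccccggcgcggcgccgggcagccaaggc
Ldha: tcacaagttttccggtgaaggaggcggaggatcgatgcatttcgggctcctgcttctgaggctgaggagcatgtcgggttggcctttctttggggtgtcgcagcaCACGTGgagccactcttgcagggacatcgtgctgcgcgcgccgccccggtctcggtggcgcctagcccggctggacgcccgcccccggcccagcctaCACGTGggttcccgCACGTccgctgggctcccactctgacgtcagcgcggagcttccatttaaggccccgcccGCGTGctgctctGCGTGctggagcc

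The Slc2a1 promoter held 1 ACGTG, 36 bases before the start on the plus strand, and 1 GCGTG on the minus strand. That of Pygb also held 1 of each, both on the minus strand. In the Slc16a3 promoter ACGTG occurred on the plus strand 27 and 14 bases before the start. Ldha had 5 matches to ACGTG and 2 to GCGTG at this start site, the most of the 12 promoters of the 10 genes. At least 1 match to either was found in 8 of the 10 genes, and the promoters of Gys1 and Gbe1 had none in this window. Across all 32851 promoters of the same length, 19.6% held ACGTG, 32.4% held GCGTG and 43.8% held either. These matches are letters and not measured binding sites.

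Slc2a1 is measured by 1 probe (chr4:118809864-118809923, mm9, plus strand). Its log2 signal was 10.87, 11.10 and 11.22 in A+/G+ replicates 1, 2 and 3, and 8.94, 8.70 and 9.79 in A-/G+. The fractions did not overlap, and A-/G+ replicate 3 was the highest of its fraction. The means were 11.06 ± 0.18 and 9.14 ± 0.57 (SD, n = 3), a difference of 1.92 (standard error 0.312, 95% interval 1.11 to 2.72, adjusted p = 0.0295, limma). The medians were 4.45-fold apart. Without A-/G+ replicate 3 the difference was 2.23 (adjusted p = 0.00744, limma). Without A+/G+ replicate 1, 2 or 3 the adjusted p was 0.0917, 0.116 and 0.116, and without A-/G+ replicate 1 or 2 it was 0.0803 and 0.0668 (limma), all above the limit, while the difference stayed between 1.69 and 2.23 over the 6 omissions.

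GLUT1 is also a leading protein of brain endothelium, so endothelial markers are set beside Slc2a1. All 10 endothelial markers had a higher mean in A+/G+, 1 of them (Cdh5) was called, and their median difference was 1.66. Their summed signal was 8136, 9572 and 12187 in A+/G+ replicates 1, 2 and 3, and 1608, 1930 and 8399 in A-/G+. The array with the highest Slc2a1 signal in each fraction, replicate 3, thus also had the highest endothelial sum. This was not particular to endothelium in A-/G+, where replicate 3 was also the brightest array (75th percentile 251). Its sums were the highest of A-/G+ for neurons (7718, 6397 and 13309), ciliated ependymal cells (794, 408 and 1460) and oligodendrocyte precursors (1329, 1117 and 2242). They were the lowest for astroglia, Bergmann glia, pericytes, microglia, Purkinje cells, granule neuron lineage and meningeal fibroblasts. Such sums follow the brightest markers, and single markers of a list could go the other way. Among pericyte markers Notch3 had 11.93, 11.94 and 11.64 in A-/G+ replicates 1, 2 and 3, but Rgs5 had 6.82, 7.32 and 8.70. In the granule neuron lineage Zic1 had 14.75, 14.65 and 14.26 there, but Barhl1 had 8.33, 8.56 and 10.74. Claudin 5 (Cldn5), a tight junction protein of endothelium, had 9.88, 10.15 and 12.52 in A-/G+ replicates 1, 2 and 3. The endothelial sums of A-/G+ replicate 3 (8399) and A+/G+ replicate 1 (8136) were close, and their Slc2a1 signals were 9.79 and 10.87. Cldn5, the brightest marker, weighs most in these sums. Single markers were ordered both ways between these 2 arrays, with Cldn5 at 12.52 and 12.39 and Cdh5 at 7.35 and 8.65. The endothelial part in the Slc2a1 difference was not tested further. All 10 endothelial probes were well above background on every A+/G+ array and 4 of them on every A-/G+ array.

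**Figure D2:**
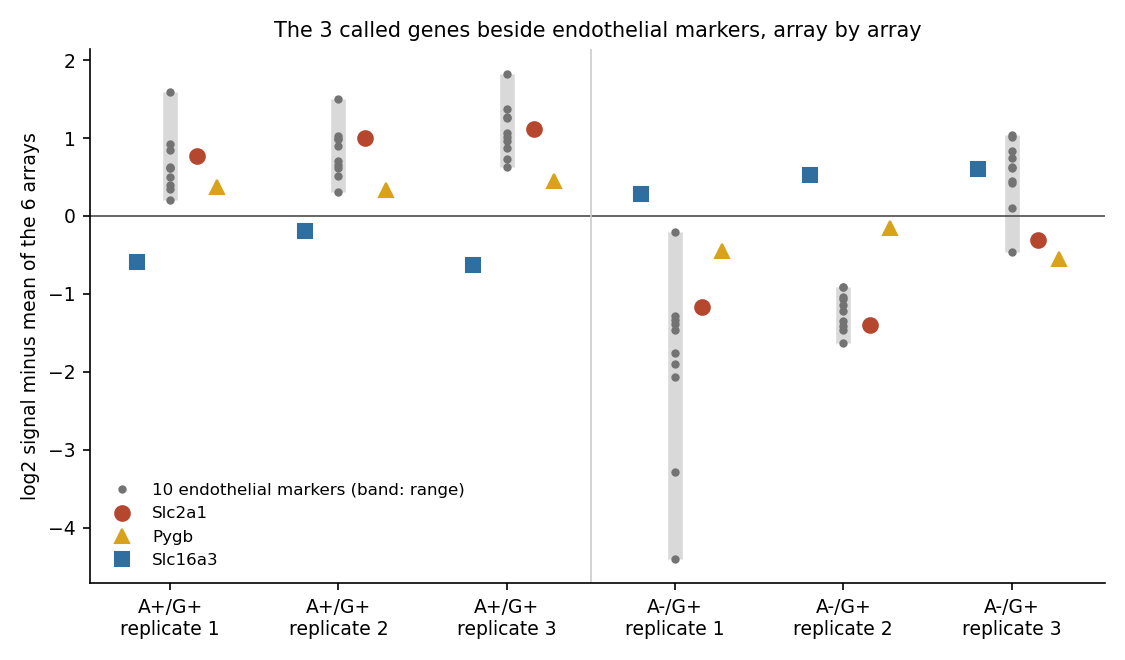
Log2 signal of Slc2a1, Pygb and Slc16a3 on each array, minus the mean of the gene over the 6 arrays, beside the same for 10 endothelial markers (gray points, with their range as a band). A-/G+ replicate 3 differs from A-/G+ replicates 1 and 2 in the endothelial markers and in Slc2a1, whereas Pygb and Slc16a3 stay near the other arrays of their fraction.

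Of the other 13 genes of glucose entry (transporters and hexokinases), 1 was called, and it was higher in A-/G+ (7.69%, against 4.64% of all probes). This was Slc2a3, which encodes GLUT3, the glucose transporter known from neurons. It had 8.51, 8.15 and 8.26 in A+/G+ and 9.52, 9.65 and 9.54 in A-/G+, with a difference of -1.26 (adjusted p = 0.00817, limma) and no overlap. The 2 transporter genes Slc2a1 and Slc2a3 were therefore called in opposite directions. The median difference over the 13 genes was 0.08. Hk1, the hexokinase known as the main form of brain, had a difference of -0.06 (adjusted p = 0.853, limma).

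Among the glycogen genes, Pygb encodes the brain form of glycogen phosphorylase, which releases glucose units from glycogen. Its probe (chr2:150656541-150656600, mm9, plus strand) gave 12.20, 12.16 and 12.28 in A+/G+ and 11.38, 11.67 and 11.28 in A-/G+. The A+/G+ arrays lay within a narrow band above all A-/G+ arrays. With means of 12.21 ± 0.06 and 11.44 ± 0.21 (SD, n = 3) the difference was 0.77 (standard error 0.12, 95% interval 0.46 to 1.08, adjusted p = 0.0264, limma), and the medians were 1.77-fold apart. The adjusted p was 0.0954, 0.0964 and 0.105 without A+/G+ replicate 1, 2 or 3, 0.071 without A-/G+ replicate 1 and 0.0501 with the 75th percentile shift (limma), all above the limit.

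Pygm, the muscle form of the phosphorylase, which is also found in astrocytes, had a signal of 7.59, 7.79 and 7.45 in A+/G+ and 6.77, 5.91 and 6.92 in A-/G+ (chr19:6398389-6398448, mm9, plus strand). Again the A+/G+ arrays lay above those of A-/G+, and A-/G+ replicate 2 was the lowest. The difference of 1.08 (95% interval 0.30 to 1.86) did not pass (adjusted p = 0.103, limma). It passed with a filter on dim probes (adjusted p = 0.0429) and with normexp background correction (adjusted p = 0.0249). The change of Pygm relative to Pygb within the arrays was 0.31 (exact permutation test, p = 0.8, two-sided).

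Gys1 encodes the glycogen synthase found outside the liver. Its brighter probe (chr7:52711790-52711849, mm9, plus strand) gave 9.86, 9.80 and 9.80 in A+/G+ and 10.23, 9.98 and 10.03 in A-/G+. Here the A-/G+ arrays lay above, by a small step. The difference was -0.26 (95% interval -0.47 to -0.04, adjusted p = 0.145, limma), and the other Gys1 probe had -0.14 (adjusted p = 0.6) with overlap. Pygb and Gys1 changed unequally within the arrays, by 1.03, with no overlap between the fractions (exact permutation test, p = 0.1, two-sided, which cannot be lower here).

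Gbe1, the branching enzyme, had 9.68, 9.74 and 9.67 in A+/G+ and 9.88, 10.32 and 9.54 in A-/G+ at its brighter probe (chr16:70569840-70569899, mm9, plus strand). The fractions overlapped, and A-/G+ varied more (SD 0.39 against 0.04). The difference was -0.22 (95% interval -0.76 to 0.32, adjusted p = 0.576, limma). A second, dim Gbe1 probe, well above background on 3 A+/G+ and 2 A-/G+ arrays, had -0.75 (adjusted p = 0.298).

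**Figure D3:**
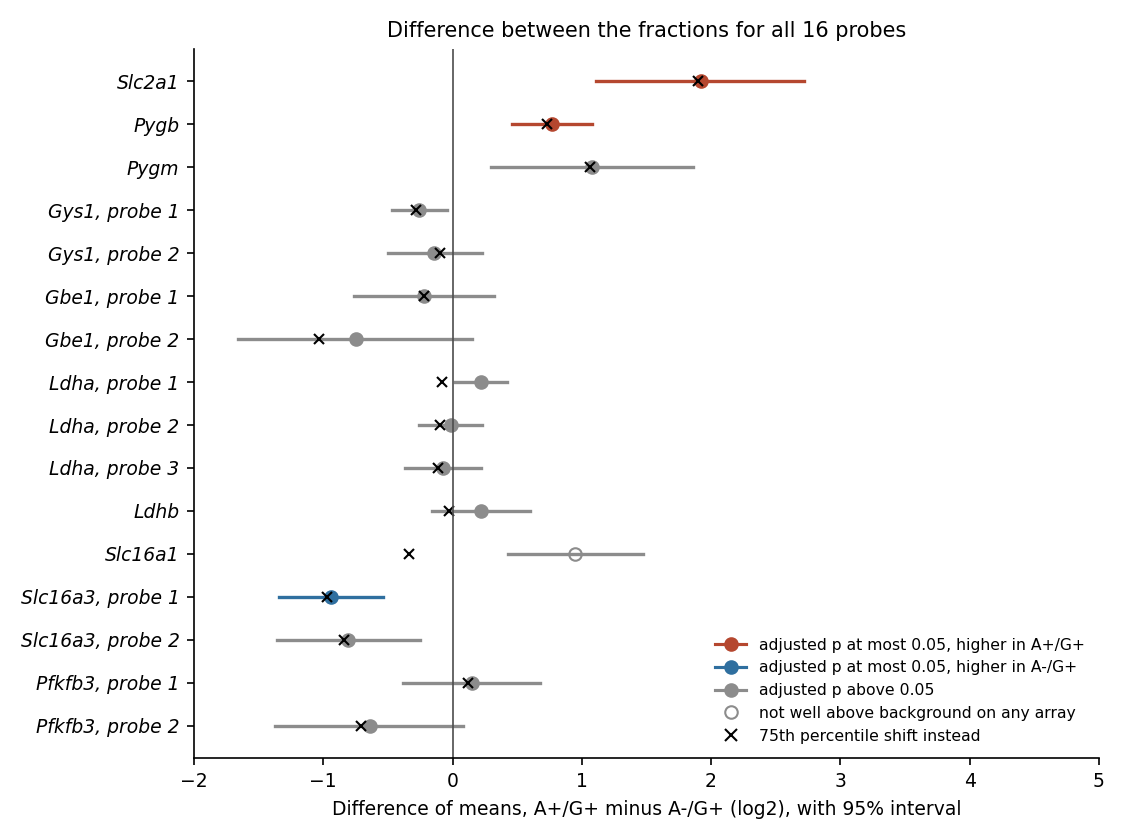
Difference of means (A+/G+ minus A-/G+, log2) with its 95% interval for all 16 probes of the 10 genes, in the order of the text, and the difference after a 75th percentile shift (crosses). Slc2a1 and Pygb lie to the right of 0 and the first Slc16a3 probe to the left with an adjusted p of at most 0.05; the crosses of the first Ldha probe, Ldhb and Slc16a1 fall on the other side of 0.

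Of the 26 other genes of glycogen handling, 9 were called for A+/G+ (34.6%, against 4.65% of all probes) and 1 for A-/G+ (3.85%, against 4.64%). Their median difference was 0.43. Past both limits were 4 of them. Ppp1r3c, which encodes a subunit that directs protein phosphatase 1 to glycogen, gave 10.85 to 11.15 in A+/G+ and 6.38 to 7.34 in A-/G+, a difference of 4.10 (adjusted p = 0.00447, limma). Ppp1r3g and Ppp1r3d encode subunits of the same kind and had differences of 2.45 (adjusted p = 0.00449) and 1.71 (adjusted p = 0.0252). Ppp1r3g was well above background on only 1 A-/G+ array. Pygl, the liver form of the phosphorylase, gave 9.65 to 9.80 in A+/G+ and 6.25 to 6.75 in A-/G+, a difference of 3.22 (adjusted p = 0.00308, limma).

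The remaining called glycogen genes were named after their values were seen. They were Pgm2, listed for the interconversion of sugar phosphates, with 1.19, the lysosomal glucosidase gene Gaa with 0.98, Gyg, the primer of glycogen synthesis (glycogenin 1), with 0.80, and Ugp2, which makes UDP-glucose, with 0.64. Epm2a was also called (adjusted p = 0.0465) but all its signals lay near background, so that no size is given. Phka2, a regulatory subunit of phosphorylase kinase, was the 1 gene higher in A-/G+, with -0.35 (adjusted p = 0.023, limma). After the 75th percentile shift limma called 5 of the 26, each of them for A+/G+.

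Gyg was also the gene most like Pygb over the 6 arrays. Once each gene was centered on its mean, their root mean square distance was 0.05 on the log2 scale, the smallest among 102 genes of the pathway lists. For Slc2a1 the nearest was Pdk4, at 0.18, and for Slc16a3 it was Ero1l (Ero1a), at 0.20. The centering spans both fractions, so genes with a like difference between the fractions lie near each other. Shared regulation of these pairs was not tested.

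Pfkfb3 makes fructose 2,6-bisphosphate, an activator of the glycolytic enzyme phosphofructokinase. Its brighter probe (chr2:11393453-11393512, mm9, minus strand) had 10.41, 10.12 and 10.37 in A+/G+ and 10.28, 10.41 and 9.74 in A-/G+, with overlap. The difference was 0.15 (95% interval -0.38 to 0.68, adjusted p = 0.669, limma). It turned to -0.05 without A-/G+ replicate 3 and to -0.25 when both probes were averaged. The second probe, placed over 1414 bases of the genome (chr2:11404189-11405602), gave 6.25, 5.82 and 5.97 in A+/G+ and 7.21, 6.46 and 6.30 in A-/G+. There the A-/G+ arrays lay above without overlap, by a difference of -0.64 (adjusted p = 0.266, limma), so the probes of this gene did not point the same way.

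Of the other 23 genes of glycolysis, 4 were called for A+/G+ (17.4%, against 4.65% of all probes) and 1 for A-/G+ (4.35%, against 4.64%). The median difference of the list was 0.17. Aldoc, an aldolase that is also used as an astroglial marker, had 15.84 to 15.96 in A+/G+ and 14.20 to 14.84 in A-/G+, a difference of 1.35 (adjusted p = 0.0175, limma). Aldoa, another aldolase, had 0.64 (adjusted p = 0.0222), and Gpi1, glucose phosphate isomerase, had 0.55 (adjusted p = 0.0192), with both further Gpi1 probes called the same way. Pfkm and Pfkl, named after their values were seen, encode subunits of phosphofructokinase and were called in opposite directions, with 0.50 (adjusted p = 0.033) and -0.40 (adjusted p = 0.0439). With the 75th percentile shift none of these 5 passed (adjusted p of 0.0501 to 0.303, limma), and the 1 gene called was Fbp1, a fructose bisphosphatase of gluconeogenesis, with 2.57 (adjusted p = 0.0439) against 3.15 (adjusted p = 0.133) before and a signal well above background on only 1 A-/G+ array.

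Ldha encodes the subunit of lactate dehydrogenase that is abundant in tissues that form lactate. Its brightest probe (chr7:54110937-54110996, mm9, plus strand) had 15.04, 14.99 and 14.85 in A+/G+ and 14.77, 14.79 and 14.65 in A-/G+. The A+/G+ arrays lay just above, without overlap. The difference was 0.22 (95% interval 0.02 to 0.42, adjusted p = 0.181, limma). Both other Ldha probes, with differences of -0.01 (95% interval -0.26 to 0.23) and -0.07 (95% interval -0.37 to 0.22), overlapped between the fractions. With the 75th percentile shift the brightest probe had -0.08.

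Ldhb, the subunit abundant in tissues that use lactate, had 14.03, 13.69 and 13.75 in A+/G+ and 13.68, 13.74 and 13.38 in A-/G+ (chr6:142438770-142438829, mm9, minus strand). The fractions overlapped, with a difference of 0.22 (95% interval -0.16 to 0.60, adjusted p = 0.465, limma), which was -0.03 with the 75th percentile shift. Within the arrays, the Ldha signal relative to that of Ldhb changed by 0.00 between the fractions, where the SD was 0.15 for A+/G+ and 0.12 for A-/G+ (exact permutation test, p = 1, two-sided). By contrast, Slc2a1 relative to Ldha changed by 1.70 without overlap (exact permutation test, p = 0.1, two-sided). Such comparisons were made for 6 pairs of genes, and this design allows none of them a p below 0.1.

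The transporter MCT1 imports and exports lactate and is known from endothelium and glia. The probe of its gene, Slc16a1 (chr3:104462276-104462335, mm9, plus strand), gave no signal well above background on the 6 arrays. It read 2.99, 3.12 and 2.41 in A+/G+ and 1.92, 1.88 and 1.87 in A-/G+. These are signals near background, so no difference is given, and their order was turned by the 75th percentile shift.

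MCT4, the product of Slc16a3, is known for lactate export from glycolytic cells and from astrocytes. Its brighter probe (chr11:120820023-120820082, mm9, plus strand) had 6.45, 6.85 and 6.42 in A+/G+ and 7.33, 7.57 and 7.64 in A-/G+. All values of A-/G+ lay above those of A+/G+. The means were 6.57 ± 0.24 and 7.51 ± 0.16 (SD, n = 3), a difference of -0.94 (standard error 0.155, 95% interval -1.34 to -0.54, adjusted p = 0.0303, limma), with medians 2.17-fold apart. The second probe, which shares 53 of its 60 bases with the first, had -0.81 (adjusted p = 0.0933), also without overlap, and is not an independent reading. Relative to Ldha on the same arrays, Slc16a3 changed by -1.16 (exact permutation test, p = 0.1, two-sided). The adjusted p was 0.109 and 0.112 without A+/G+ replicate 1 or 3, 0.0511, 0.0869 and 0.0503 without A-/G+ replicate 1, 2 or 3, and 0.0501 with the 75th percentile shift (limma), all above the limit.

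**Figure D4:**
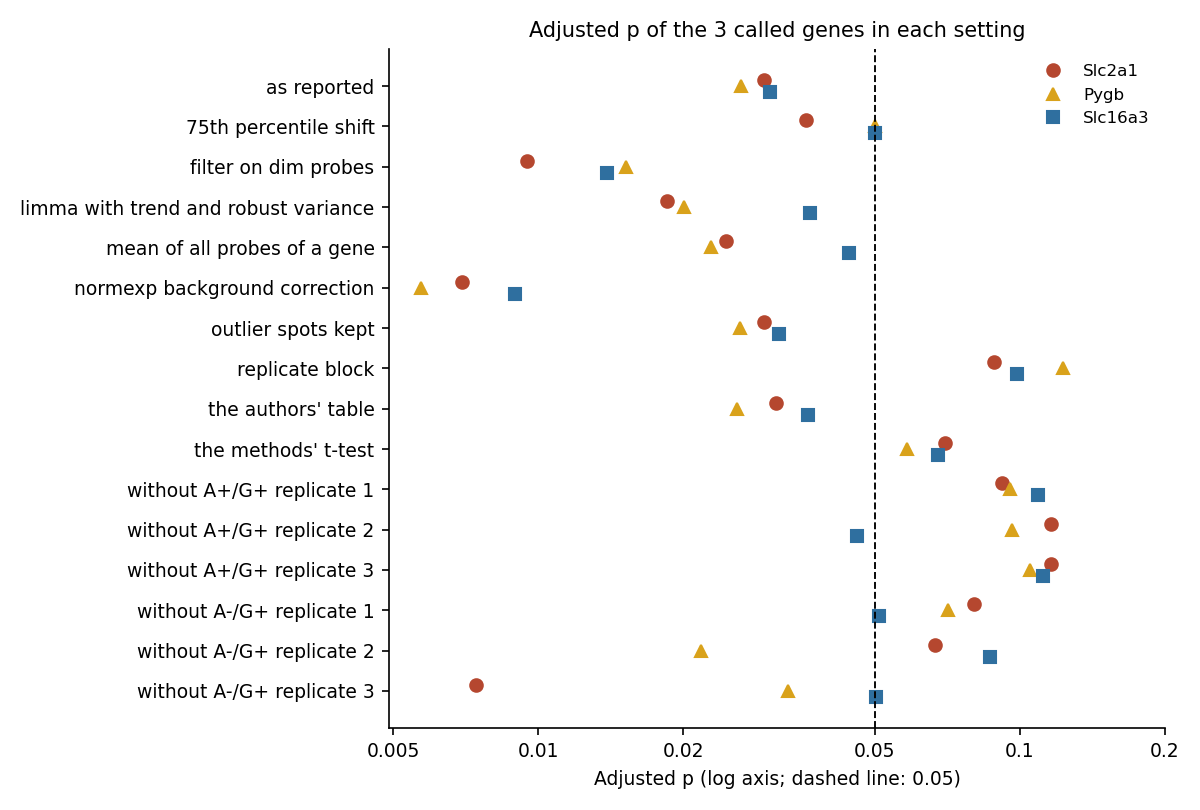
Adjusted p of Slc2a1, Pygb and Slc16a3 as reported and in each of 15 alternatives, on a log axis with the limit of 0.05 dashed. The values run from 0.00572 (Pygb, normexp background correction) to 0.123 (Pygb, replicate block), and leaving out a single array moved most of them past the limit.

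Of the other 20 genes that handle pyruvate and lactate, 4 were called for A+/G+, where 4.65% of all probes were, and 1 for A-/G+, where 4.64% were, and the median difference was 0.30. Pdk4, a kinase that switches off pyruvate dehydrogenase, was past both limits, with 8.02 to 8.03 in A+/G+ and 5.76 to 6.66 in A-/G+. Its difference was 1.88 (adjusted p = 0.0178, limma), and it was well above background on 2 of 3 A-/G+ arrays. The others, named after their values were seen, were Pdk1, a second such kinase, with 1.19, Pdha1, a subunit of pyruvate dehydrogenase itself, with 0.73, and Mpc2, of the mitochondrial pyruvate carrier, with 0.31. Pcx, the pyruvate carboxylase that astrocytes use to refill the citric acid cycle, had -0.76 (adjusted p = 0.0488). After the 75th percentile shift 2 of the 20 were called, both for A+/G+.

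Regulators and known targets of hypoxia-inducible factors formed the last list. Of 20 genes, limma called 4 for A+/G+, where 4.65% of all probes were, and 0 for A-/G+, where 4.64% were. The median difference was 0.52. At an unadjusted p under 0.05 these counts were 11 and 1, where 10.7% and 12.6% of all probes passed. This was not particular to the list. The same counts were 12 and 3 of 26 for glycogen handling, 8 and 3 of 23 for glycolysis, 9 and 2 of 20 for pyruvate and lactate, and 3 and 1 of 13 for glucose entry. Car9, a membrane carbonic anhydrase, had no A-/G+ array well above background, and its signal in A+/G+ was at least 5.54-fold that in A-/G+ (adjusted p = 0.0038, limma). This bound is the A+/G+ mean against the A-/G+ mean of, per array, the lowest signal well above background or the signal of the probe where higher. Adm, the precursor of the vasodilator peptide adrenomedullin, had 8.80 to 9.02 in A+/G+ and 5.73 to 6.80 in A-/G+, a difference of 2.61 (adjusted p = 0.0132). Hif3a and Bnip3, a mitophagy receptor, named after their values were seen, had 1.54 (adjusted p = 0.0135) and 0.68 (adjusted p = 0.0132), and neither of the other 2 Hif3a probes was called. Hif1a itself had 0.42 (adjusted p = 0.0793) and Epas1, which encodes HIF-2 alpha, 1.87 (adjusted p = 0.0973), and neither passed. Slc16a3 had the opposite direction to the 4 called genes of this list. Ero1l had a difference of -1.04, without overlap, but was not called (adjusted p = 0.0605, limma). It had been picked as the list gene nearest to Slc16a3 over the same 6 arrays, so their shared direction is no separate finding. The Ero1l probe was also dim, and only 2 A-/G+ arrays had it well above background. A link between Slc16a3 and hypoxia-inducible factors was not tested.

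**Figure D5:**
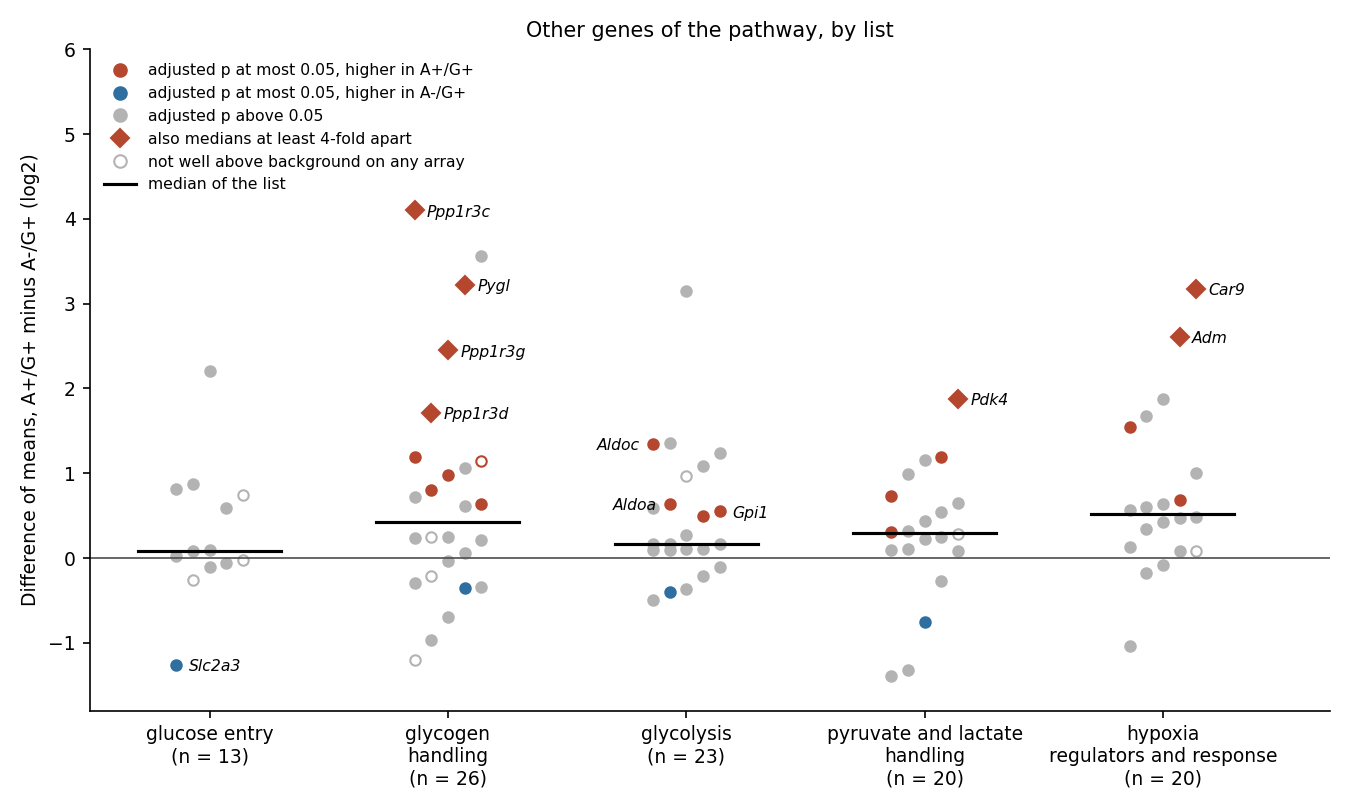
Difference of means (A+/G+ minus A-/G+, log2) of the 102 other genes in 5 pathway lists, with the median of each list (black line), colored by the call and drawn open where no array had a signal well above background. Most called genes lie above 0, and the largest called difference, 4.10 for Ppp1r3c, belongs to glycogen handling.

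Over all 5 lists together, 21 of 102 genes were called for A+/G+ (20.6%, against 4.65% of all probes) and 4 for A-/G+ (3.92%, against 4.64%). The median difference was 0.32, against -0.043 over all probes. The shares of all probes are no like measure for the lists. In 73 of the 102 genes every array of both fractions cleared the background. The filter on dim probes asks for less, namely every array of A+/G+ or every array of A-/G+, and it kept 25178 of 55681 probes. With that filter 3249 of the kept probes were called for A+/G+ and 3330 for A-/G+. Of the list genes 29 and 4 were then called. Without A+/G+ replicate 1, 2 or 3 the number of list genes higher in A+/G+ was 7, 6 and 8, and without A-/G+ replicate 3 it was 35. The 75th percentile shift gave 11 and 2 genes, of which 10 and 1 had been called before. The others were Fbp1 and Ero1l.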

How the data were processed

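Gene expression of 6 sorted samples was measured on Agilent 8x60K arrays labeled with Cy3. The authors deposited, per the file headers, the intensity of each spot after background subtraction by Agilent Feature Extraction 10.7.3.1, and a table of log2 values that the authors had quantile normalized, with 38 empty cells. Flags for spots well above background, saturated or marked as outliers were also deposited. No column held comparisons by the authors, and 0 columns belonged to other samples.

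Control and outlier spots were removed, the logarithm to base 2 was taken, and arrays were quantile normalized. The comparison used limma 3.58.1 (R 4.3.3) on 55681 probes and Benjamini-Hochberg adjustment, where the methods used a t-test. The limits were an adjusted p of 0.05 and, separately, medians at least 4-fold apart. Single values were also compared by an exact permutation test. No filter on dim probes was applied. The fit was tested on simulated data.

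The 10 genes and the lists were chosen with earlier results of these data known. Named are the 10 genes, from each pathway list the genes past both limits or otherwise the 3 largest called differences, the pathway gene most like each called gene, and Slc1a3 and Atp1b2. Hk1, Hif1a, Epas1, Fbp1, Slc2a2, Cdh5, Cldn5, Notch3, Rgs5, Zic1, Barhl1 and the remaining called genes of the lists were named after their values were seen. Most alike means the smallest root mean square distance of centered values. Probe positions are those of the array annotation on mm9, and all genes of the lists were found. Samples are biological replicates per the labels, and the number of arrays limits the precision. Marker lists without a call were microglia, red blood cells, choroid plexus and neurons. Markers that had no array with a signal well above background included Ptprc and Gabra6. An item of a marker list is not reported here. In the astroglia list 3 of 9 genes were called for A+/G+ and 1 for A-/G+, and in the granule neuron lineage 1 of 8 for A-/G+.

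Alternatives were the 75th percentile shift, a filter on dim probes (25178 kept), the authors' table, normexp (offset 50), trended robust variance in limma, the methods' t-test, the replicate block, outlier spots kept, the mean of all probes, a 2-fold limit and the omission of single arrays. The slide could not be fitted as a block, since each held 1 fraction.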

Additional observations from a re-analysis of the deposited data

How the results depend on the processing

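The directions of Slc2a1, Pygb, Slc16a3, Pygm, Gys1 and Gbe1 were the same in all 15 alternatives. With the 75th percentile shift the differences of Ldha (-0.083) and Ldhb (-0.027) changed sign, and that of Pfkfb3 did with the mean of its probes (-0.25) and over the omissions of single arrays (-0.048 to 0.28). The fitted value of Slc16a1 became -0.34, which gives no size of change since its signals lay near background. The cause was not tested. With the 75th percentile shift 1 of the 10 genes was called for A+/G+ and 0 for A-/G+. The numbers of pathway genes called were 11 and 2, of which 10 and 1 had been called before, and 1227 probes were higher in A+/G+ and, with both limits, 938 higher in A-/G+. In the methods' t-test, with Benjamini-Hochberg adjustment, 0 of the 10 genes were called in each direction (5 and 2 at an unadjusted p under 0.05, as were 5120 and 7416 probes) and 0 with both limits. It called 2 pathway genes for A-/G+, 1351 and 1197 probes, and 487 and 121 with both limits. Normexp gave 234 and 48 probes with both limits, and a 2-fold limit gave 1797 and 1340, with 1 gene (Slc16a3) higher in A-/G+. Trended robust variance and the authors' table each called 2 pathway genes higher in A-/G+. Pygm gained a call with the dim filter and with normexp, and Slc16a1 with the mean of probes and without A+/G+ replicate 3.

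When single arrays were left out, 0 to 2 of the 10 genes were called higher in A+/G+ and 0 to 1 higher in A-/G+, and with both limits 0 to 1 higher in A+/G+. Of the pathway genes, 6 to 35 were called higher in A+/G+ and 1 to 6 higher in A-/G+. Of all probes, 825 to 4469 and 409 to 4622 were called, and with both limits 328 to 1448 and 75 to 481. The highest counts of probes and pathway genes came without A-/G+ replicate 3.

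Both fractions carry replicate numbers 1 to 3, but nothing ties equal numbers to 1 litter or day, and deviations of same-numbered arrays correlated at 0.125, 0.116 and -0.031. With the replicate block limma called 0 probes, 0 of the 10 genes and 0 pathway genes in either direction, while 5354 and 6317 probes, 4 and 2 of the genes, and 43 and 9 pathway genes had an unadjusted p under 0.05. The fits for Slc2a1, Pygb and Slc16a3 then had adjusted p of 0.0882, 0.123 and 0.0985.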
